A study of Mus musculus with 6 samples.

Results

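The proteins of the small (40S) subunit of the cytosolic ribosome were examined in the proximal mouse incisor, as 28 genes: Rpsa, Rps2, Rps3, Rps3a1, Rps4x, Rps6, Rps7, Rps9, Rps10, Rps12, Rps13, Rps14, Rps15, Rps15a, Rps16, Rps18, Rps19, Rps20, Rps21, Rps23, Rps24, Rps25, Rps26, Rps27, Rps27a, Rps28, Rps29 and Fau. They were chosen by name as parts of the cytosolic subunit, pseudogenes left out, and are 28 of the 19060 genes in the count table. All 28 had enough counts to be tested. Bulk RNA sequencing compared 3 libraries from control mice (Fgfr1fl/fl, labelled wild type) with 3 from mutant mice (Gli1CreER;Fgfr1fl/fl, the driver being labelled Gli1-Cre). Both groups carry the floxed Fgfr1 alleles, only the mutants carry the driver, and according to the methods of the study both received tamoxifen at 1 month of age, with collection of the incisor 1 week later. Gli1CreER deletes Fgfr1 only in cells that express Gli1, while the library holds RNA of the whole proximal end, mesenchyme and epithelium together. The labels do not say how many animals went into a library, so p-values measure the spread between these libraries.

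A ribosome is built of a small subunit, which binds the mRNA and decodes it, and a large (60S) subunit, which joins the amino acids. The small subunit has a head and a body, between which the mRNA runs. Ribosomal protein mRNAs begin with a C followed by a run of C and T (the terminal oligopyrimidine, or TOP, tract), through which mTORC1 controls their translation, and the protein S6, made from Rps6, is the classical substrate of the S6 kinases downstream of mTORC1. Cells make the subunit proteins in matched amounts, and surplus copies are degraded. In growing tissues these mRNAs are among the most abundant.

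Start windows are given because this tract is the sequence feature the family is known for, and the choice of members did not use it. Each covers 10 bases before and the first 20 bases from the annotated RefSeq start, on the gene's strand in GRCm38.p6, where runs of 5 or more C or T are in capitals. Capitals mark a run anywhere in the window, which need not begin at the annotated start. In Rps12, Rps23, Rps26 and Rps2 the run begins after that start, so the capitals alone do not show a TOP tract. Shown are the 4 members with the largest and the 4 with the smallest change among those with a single listed start, and Fau.
Rps12, chr10:23787190-23787219, minus strand: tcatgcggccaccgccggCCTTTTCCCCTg
Rps27, chr3:90213629-90213658, minus strand: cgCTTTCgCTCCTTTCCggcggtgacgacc
Rps16, chr7:28350679-28350708, plus strand: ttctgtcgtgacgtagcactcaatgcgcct
Rps23, chr13:90923112-90923141, plus strand: cggctgggcggggCTTCCCgcaatgccttg
Rps6, chr4:86857348-86857377, minus strand: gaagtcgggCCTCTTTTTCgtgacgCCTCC
Rps26, chr10:128626487-128626516, minus strand: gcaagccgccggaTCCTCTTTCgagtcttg
Rps2, chr17:24720053-24720082, plus strand: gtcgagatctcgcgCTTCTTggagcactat
Rps4x, chrX:102189372-102189401, minus strand: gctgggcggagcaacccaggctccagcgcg
Fau, chr19:6057937-6057966, plus strand: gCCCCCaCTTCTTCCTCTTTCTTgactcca

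Fau held the longest run of these windows, at 16 bases, followed by Rps12 with 11 and Rps6 with 10. The windows of Rps16 and Rps4x, near opposite ends of the order of changes, had no run longer than 4. RefSeq promoters were matched for 24 of the 28 members; Rps14, Rps20, Rps27a and Rps29 were not matched. Of the 24, 12 (50%) had a run of at least 7 C or T anywhere in this window, against 20.5% of 27025 genes with a listed promoter. Whether the run begins at the mRNA start was not asked. On the opposite strand 1 member (4.17%) had such a run, against 23.4% of all genes. In the 300 bases from 250 before to 50 after the start, searched on both strands, the ETS core CCGGAAG stood in 10 of the 24 members (41.7%) and in 9.93% of all promoters. The YY1 core AAGATGGC stood in 3 (12.5%; Rps15a, Rps27 and Fau) against 3.19%, and TATAAA in 2 (8.33%; Rps2 and Rps28) against 15.7%. The last 3 letters of CCGGAAG are the first 3 of AAGATGGC, so that a single stretch can hold both, and a match is only a description of the letters.

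The libraries differed in depth with the group. The total estimated counts were 32292649, 31060222 and 32712448 in controls 1 to 3, and 5276557, 11819576 and 11358282 in mutants 1 to 3. Genes listed at 0 made up 3.95%, 3.83% and 3.96% of the table in the controls and 30.3%, 17.1% and 19.7% in the mutants. Depth and genotype cannot be told apart in this design. The members themselves were far above the limit of depth: 3 counts correspond to between 0.0825 and 0.655 CPM (the usual count per library size, with library sizes scaled by the upper quartile), whereas the lowest member value was 250 CPM, for Rps28 in control 2. Control 2 stood apart from the other controls, with the highest Col1a1 (50909 CPM against 18511 and 24634) and Dspp, with muscle genes, and with the lowest value of the 3 for every member, so results are also given without it. Mutant 1 was the shallowest library, held the most muscle signal, and correlated with the other mutants at 0.728 and 0.725 over log2 CPM of the genes tested, where the controls correlated with each other at 0.944 to 0.973 and the other pair of mutants at 0.791. Mutant 2 correlated more with control 1 (0.818) than with mutant 3. Without mutant 1 the members' median log2 fold change, given below, was 1.32. Fgfr1 itself (chr8:25513654-25575718) measured 529, 924 and 434 CPM in the controls and 148, 318 and 262 CPM in the mutants. All mutants were below all controls, and the log2 fold change was -1.37 (standard error 0.40, adjusted p = 0.0881 by edgeR).

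The small subunit mRNAs were more abundant in the mutant libraries. Together they held 4.70%, 1.84% and 3.62% of all counts in controls 1 to 3 and 7.56%, 7.40% and 7.69% in mutants 1 to 3, a ratio of means of 2.23. The mutants lay close together and the controls were spread out, with no overlap between the groups. Without control 2 the ratio was 1.82. As summed levels these were 44190, 15676 and 34183 CPM against 87022, 74690 and 88055 CPM. In bulk tissue, a different number of cells rich in these mRNAs and a different amount of the mRNA per cell cannot be told apart.

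**Figure D1:**
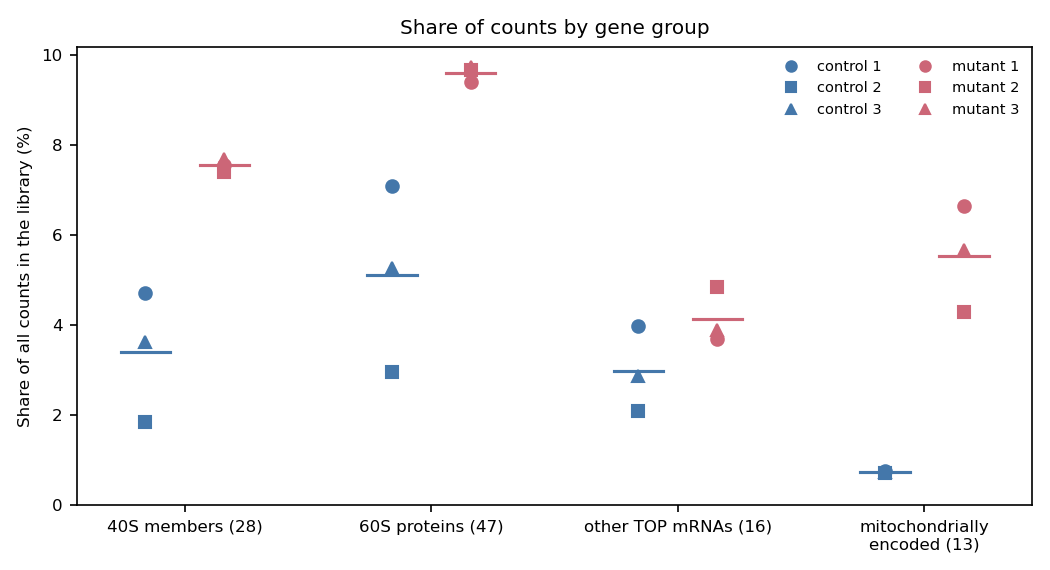
Share of all counts (%, vertical axis) held by the 28 small subunit members, 47 large subunit proteins, 16 other mRNAs with a TOP tract and 13 mitochondrially encoded genes; each point is a library and each line a group mean. The members' shares ran from 7.40% to 7.69% in the mutants and from 1.84% to 4.70% in the controls, and only the other TOP mRNAs overlapped between the groups.

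All 28 members had a positive log2 fold change, mutant over control, from 0.37 (Rps4x) to 2.25 (Rps12), with a median of 1.31, beside a median of -0.04 over all 15826 genes tested. By edgeR's quasi-likelihood test with Benjamini-Hochberg adjustment over all genes, 7 members rose at an adjusted p under 0.05 (Rps12, Rps21, Rps27, Rps16, Rps24, Rps27a and Rps28), where 3.72% of all genes were called higher and 6.79% called in either direction, and no member fell. At an unadjusted p under 0.05, 25 members were higher, against a background of 11.0%, and none was lower. Every mutant library was above every control library for 27 of the 28, against 14.1% of all genes, the exception being Rps4x. The calls were close to the threshold: the 7 adjusted p-values ran from 0.0464 to 0.0495, a range into which many genes fell, since 658 genes in all had an adjusted p from 0.045 to 0.05. Without control 2 the call count was again 7, of 199 genes called in all among 15490, and the median was 0.98. Leaving out any one of the other 5 libraries gave 0 calls, with 15 to 26 members at an unadjusted p under 0.05. The correction for length and GC content described further on also gave 0 calls, with a median of 0.52. No filter on low counts and protein-coding genes only each gave 0 as well, and thinned control counts gave 3. DESeq2 called 23 members higher and limma-voom 17, where they called 1609 and 1340 of 15826 genes in either direction.

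**Figure D2:**
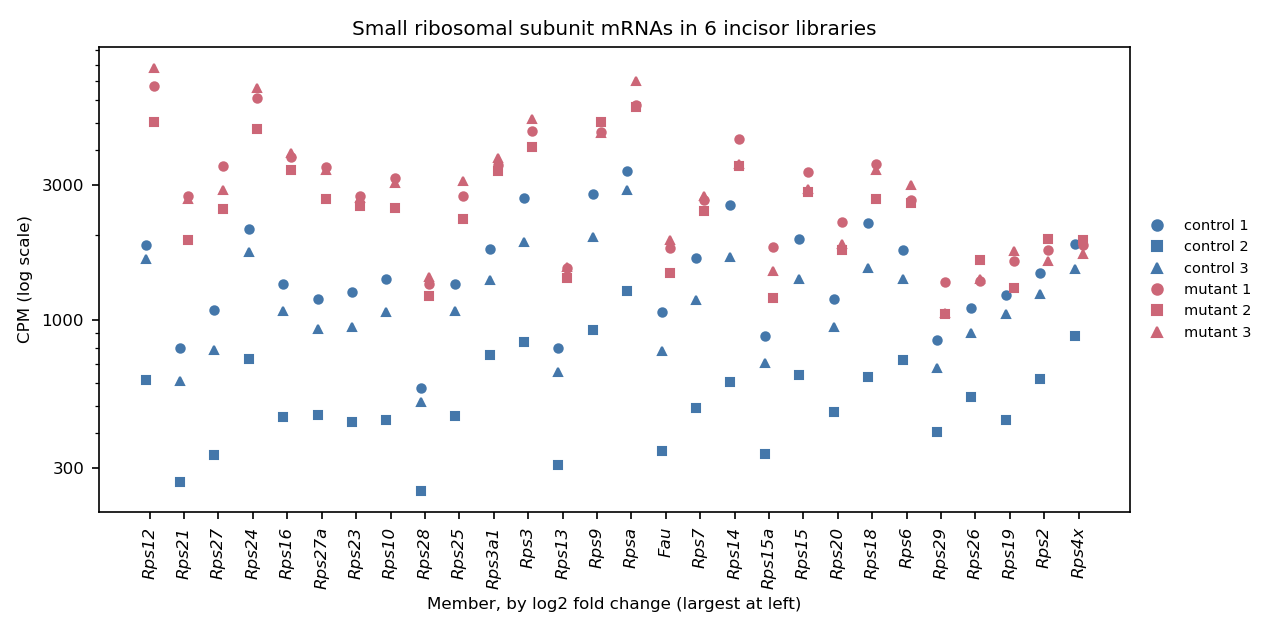
CPM (log axis) of the 28 members in each of the 6 libraries, ordered from the largest log2 fold change (Rps12, 2.25) to the smallest (Rps4x, 0.37). Blue points are controls, red points mutants; control 2 (blue squares) is the lowest library throughout, and the groups overlap only at Rps4x.

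Rps12, a head protein (chr10:23785183-23787275), measured 1846, 617 and 1644 CPM in the controls and 6747, 5040 and 7782 CPM in the mutants. The lowest mutant was above the highest control by a wide margin, and the log2 fold change was 2.25 ± 0.50 (SE, adjusted p = 0.0464 by edgeR). With a correction for length and GC content the change of Rps12 was 1.14 (adjusted p = 0.152 by edgeR). Rps21, a body protein (chr2:180257377-180258445), went from 799, 268 and 610 CPM to 2760, 1925 and 2683 CPM. The groups were as clearly apart, at 2.14 ± 0.45 on the log2 scale (adjusted p = 0.0464 by edgeR), but 0.54 with a correction for length and GC content.

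Rps27, a body protein with a zinc finger (chr3:90212522-90213651), measured 1090, 333 and 785 CPM in the controls against 3523, 2474 and 2888 CPM in the mutants. Its log2 fold change was 2.01 ± 0.47 (adjusted p = 0.0464 by edgeR), but 0.18 with the length and GC correction. Rps27l, the paralogous gene known as a p53 target, was expressed far less, at 90.4, 39.5 and 86.1 CPM against 173, 112 and 237 CPM. The libraries of Rps27l did not overlap either, but with 1.27 ± 0.39 it did not pass (adjusted p = 0.107 by edgeR). The Rps27 retrogene Rps27rt, at 56.4, 18.3 and 42.8 CPM against 146, 177 and 198 CPM, did pass (2.15 ± 0.40, adjusted p = 0.0379 by edgeR). Almost all 75-base windows of the Rps27 transcript (98.5%) also match another gene, so its reads could be assigned to either.

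Rps24, a body protein that is one of the genes mutated in Diamond-Blackfan anaemia (chr14:24487125-24496959), measured 2098, 730 and 1741 CPM in the controls and 6126, 4739 and 6624 CPM in the mutants. Its log2 fold change was 1.94 ± 0.47 (adjusted p = 0.0495 by edgeR), and 1.47 with the length and GC correction (adjusted p = 0.0754 by edgeR). Rps24 did not pass with TMM scaling (adjusted p = 0.0562 by edgeR) or total counts (adjusted p = 0.0504 by edgeR). Rps16, a head protein that reaches toward the decoding site (chr7:28350652-28353155), measured 1343, 454 and 1079 CPM against 3791, 3391 and 3891 CPM. Its mutant libraries lay close together, and its change was the same as that of Rps24, 1.94 ± 0.45 (adjusted p = 0.0464 by edgeR). With the length and GC correction the change of Rps16 was 1.40 (adjusted p = 0.0754 by edgeR). Rps28, a small head protein, was lower in level and went from 577, 250 and 516 CPM to 1346, 1216 and 1420 CPM, without overlap (1.57 ± 0.36, adjusted p = 0.0464 by edgeR). Its change was -0.02 with the length and GC correction, and with its matched pseudogenes added it did not pass (adjusted p = 0.0623 by edgeR).

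Rps27a and Fau are made as fusion proteins, the first with ubiquitin in front and the second with a ubiquitin-like domain in front, which are cut off. Rps27a measured 1189, 462 and 931 CPM in the controls and 3489, 2679 and 3392 CPM in the mutants, a log2 fold change of 1.89 ± 0.42 (adjusted p = 0.0464 by edgeR). With the length and GC correction the change of Rps27a was 0.90 (adjusted p = 0.12 by edgeR). Fau measured 1074, 345 and 781 CPM against 1800, 1474 and 1919 CPM. Both were higher in every mutant library, but Fau did not pass the threshold (1.24 ± 0.43, adjusted p = 0.145 by edgeR).

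Rps6, the S6 kinase substrate (chr4:86854660-86857412), measured 1774, 723 and 1396 CPM in the controls and 2654, 2602 and 3015 CPM in the mutants. The groups did not overlap, and the log2 fold change of 1.09 ± 0.39 did not pass (adjusted p = 0.163 by edgeR). Rps3, which lines the mRNA entry channel, measured 2705, 841 and 1889 CPM against 4650, 4102 and 5132 CPM (1.35 ± 0.47, adjusted p = 0.145 by edgeR). Rpsa, also known as the laminin receptor, measured 3369, 1271 and 2881 CPM against 5747, 5664 and 7019 CPM (1.29 ± 0.45, adjusted p = 0.150 by edgeR). In all 3 genes the mutant values were above the highest control while the controls differed among themselves by a factor larger than that gap.

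Rps14, whose loss underlies the anaemia of the 5q- syndrome, measured 2552, 603 and 1676 CPM in the controls and 4380, 3499 and 3562 CPM in the mutants (1.24 ± 0.52, adjusted p = 0.227 by edgeR). Rps19, the gene most often mutated in Diamond-Blackfan anaemia (chr7:24884371-24889806), measured 1233, 444 and 1050 CPM against 1625, 1300 and 1760 CPM (0.78 ± 0.41, adjusted p = 0.346 by edgeR). Rps26, another gene of that disease, which sits at the mRNA exit (chr10:128624534-128626747), measured 1101, 537 and 899 CPM against 1378, 1640 and 1398 CPM (0.80 ± 0.34, adjusted p = 0.234 by edgeR). The lowest mutant value of Rps19 hardly exceeded control 1, while those of Rps14 and Rps26 were further from it.

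The smallest changes were those of Rps4x, Rps2, Rps19, Rps26 and Rps29. Rps29, a zinc-binding head protein (chr12:69157722-69159186), measured 850, 402 and 678 CPM in the controls and 1362, 1053 and 1062 CPM in the mutants (0.85 ± 0.34, adjusted p = 0.211 by edgeR). Rps2, a body protein at the mRNA entry (chr17:24718116-24721929), measured 1471, 622 and 1236 CPM against 1770, 1932 and 1619 CPM (0.68 ± 0.37, adjusted p = 0.371 by edgeR). Rps4x, an X-linked body protein (chrX:102184941-102189394), measured 1864, 877 and 1518 CPM against 1853, 1927 and 1709 CPM. Control 1 and the mutants were level for Rps4x, and the change was 0.37 ± 0.35 (adjusted p = 0.651 by edgeR). With the length and GC correction Rps29 (-0.79, unadjusted p = 0.00847 by edgeR), Rps4x (-0.45) and Rps26 (-0.38) turned negative. Under it Rps2 (0.27) and Rps19 (0.02) stayed positive.

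The other 11 members, Rps3a1, Rps7, Rps9, Rps10, Rps13, Rps15, Rps15a, Rps18, Rps20, Rps23 and Rps25, lay between 1.15 and 1.60 on the log2 scale, and none of them passed the adjusted threshold. Rps23, a body protein at the decoding centre, came closest (1.60 ± 0.42, adjusted p = 0.0653 by edgeR). By position in the subunit, the 12 head proteins had a median log2 fold change of 1.42 with 4 calls, and the 16 body proteins a median of 1.27 with 3. Head mRNAs held 40.3%, 39.0% and 40.4% of the members' counts in the controls and 43.8%, 41.3% and 44.0% in the mutants. Rps12, a head protein, alone went from 4.18%, 3.93% and 4.81% to 7.75%, 6.75% and 8.84%, as large a rise as that of the head mRNAs together. The division into head and body was added after the values were seen.

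Levels per length put the members in a different order. Divided by coding length, Rps29 had the highest mean in the controls (3828 ± 1344 CPM per coding kilobase, SD, n = 3), next to Rps24 with 3817 ± 1779 and Rps14 with 3554 ± 2155. Control 2 carried this order, since Rps24 stood above Rps29 in control 1 and in control 3. These neighbours were well within each other's spread. In the mutants Rps12 stood first (16472 ± 3497), then Rps24 (14610 ± 2448) and Rps27 (11752 ± 2096), of which the first and the second did not differ beyond their spread. Rps12 had ranked 4 in the controls, and Rps29 ranked 12 in the mutants. Rps2 stood last in both groups, at 1262 ± 499 and 2018 ± 178 CPM per coding kilobase.

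The members did not move by one common factor. Each member's share of the counts of all 28, a value that no scaling between libraries can change, was higher in every mutant library for 8 members and lower in every mutant library for 9, and overlapped for the remaining 11. Counted the same way relative to the members' sum, 3.61% of all genes tested were higher and 62.8% lower. Since that sum itself held a larger share of counts in every mutant, these percentages are no expected rate for the members. These within-group comparisons gave no test of their own.

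The share of Rps12 was 4.18%, 3.93% and 4.81% in the controls and 7.75%, 6.75% and 8.84% in the mutants, a ratio of means of 1.81. The ratios were 1.66 for Rps21, 1.54 for Rps27, 1.46 for Rps16, 1.44 for Rps24 and 1.37 for Rps27a. These 6 together made up 18.9%, 18.3% and 19.9% of the members' counts in the controls and 30.4%, 27.1% and 31.0% in the mutants. Rps23 and Rps10, both at 1.15, completed the 8. For these 6, control 2 lay close to the other controls. The order depended in part on the length correction described further on. Under it Rps21 (0.54) was level with the members' median of 0.52 and Rps27 (0.18) was below that median. Rps12 (1.14), Rps16 (1.40), Rps24 (1.47) and Rps27a (0.90) were above it.

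The share of Rps4x was 4.22%, 5.60% and 4.44% in the controls and 2.13%, 2.58% and 1.94% in the mutants, a ratio of 0.466. Rps2 followed with 3.33%, 3.97% and 3.61% against 2.03%, 2.59% and 1.84% (ratio 0.592). The ratios were 0.628 for Rps26, 0.645 for Rps19, 0.646 for Rps29, 0.783 for Rps6, 0.832 for Rps20, 0.870 for Rps15 and 0.900 for Fau. Over the 28 members, log2 counts correlated at a Pearson r of 0.921 to 0.983 between controls, 0.952 to 0.976 between mutants and 0.566 to 0.836 between a control and a mutant, where the points are genes measured in the same libraries and not replicates.

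**Figure D3:**
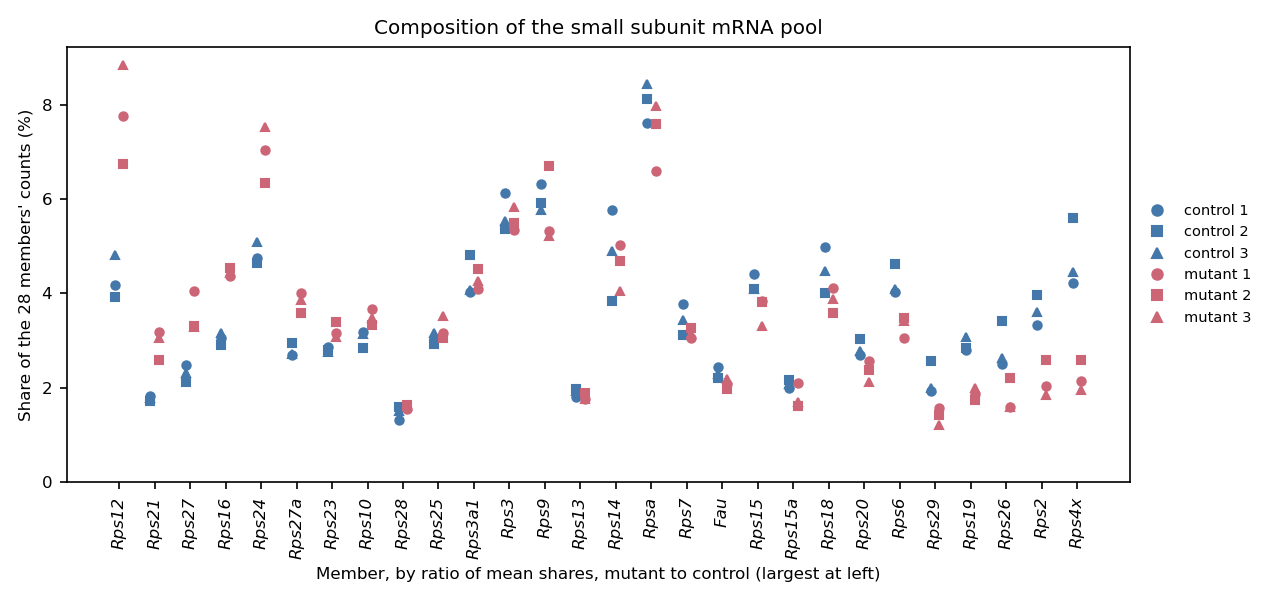
Share (%) of each member in the summed counts of the 28, by library, ordered by the ratio of the group means from Rps12 (1.81) to Rps4x (0.466). Red points (mutants) stand above all blue points (controls) for 8 members at the left and below them for 9 toward the right.

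Gene length moved with the comparison across the whole table. Among protein-coding genes other than the members, the median log2 fold change was 0.95 for a coding length up to 300 bases (304 genes), 0.53 from 300 to 600 bases, 0.17 from 600 to 900 bases, -0.09 from 900 to 1500 bases, -0.31 from 1500 to 3000 bases and -0.36 above 3000 bases. The members in the first 3 ranges had medians of 1.79 (4 members), 1.28 (18 members) and 1.19 (6 members), each above the median of the other genes of that length. Of the 3572 genes with a coding length up to 900 bases that are not ribosomal proteins, 64.8% had a positive change, 19.0% were higher at an unadjusted p under 0.05, and the median was 0.33. By transcript length, the members up to 600 bases (9 members, median 1.35) were close to the other 188 genes of that length (1.27), and the 12 members from 600 to 1000 bases (1.24) were above them (0.73). Above that length the members stood further from the other genes, with 1.5 against 0.15 from 1000 to 2000 bases (5 members), 1.17 against -0.21 from 2000 to 4000 bases (1 member) and 1.23 against -0.27 beyond (1 member). Transcript lengths are those of 1 annotated model per gene, which for Rps15a (5179 bases) and Rps20 (3706 bases) are much longer than the coding part. The 5 members from 1000 to 2000 bases also have models longer than their coding part. These are Rps24 (1613 bases, coding 399), Rps16 (1109, coding 438), Rps25 (1280, coding 375), Rpsa (1938, coding 885) and Rps3 (1908, coding 729). How far their place in these ranges rests on the model chosen was not tested.

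With a correction of each library for transcript length and GC content, the median of the members was 0.52, 24 of 28 were positive, and none passed at an adjusted p under 0.05 (0.655% of all genes were called higher), with 11 higher and 1 lower at an unadjusted p under 0.05 (7.03% of all genes were higher). The largest were then Rps24 (1.47) and Rps16 (1.40), each at an adjusted p of 0.0754 by edgeR, followed by Rpsa with 1.27. The fitted offset for length and GC, mutant minus control, was 0.541 for Rps24, 0.635 for Rps16 and 0.0706 for Rpsa. For Rps21, whose annotated transcript is shorter, the offset was 1.72, so this order depends on the annotated models. Rps27 went from 2.01 to 0.18 and Rps21 from 2.14 to 0.54, among the largest shifts of the 28. Rps4x, Rps26, Rps28 and Rps29 turned negative, at -0.45, -0.38, -0.02 and -0.79, and Rps29 was the 1 lower member. Among the members, Spearman's rho with the uncorrected change was -0.247 for coding length and -0.093 for transcript length over 28 genes of the same libraries, and with the corrected change 0.681 for transcript length. The part of length in the result was not tested beyond these values.

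**Figure D4:**
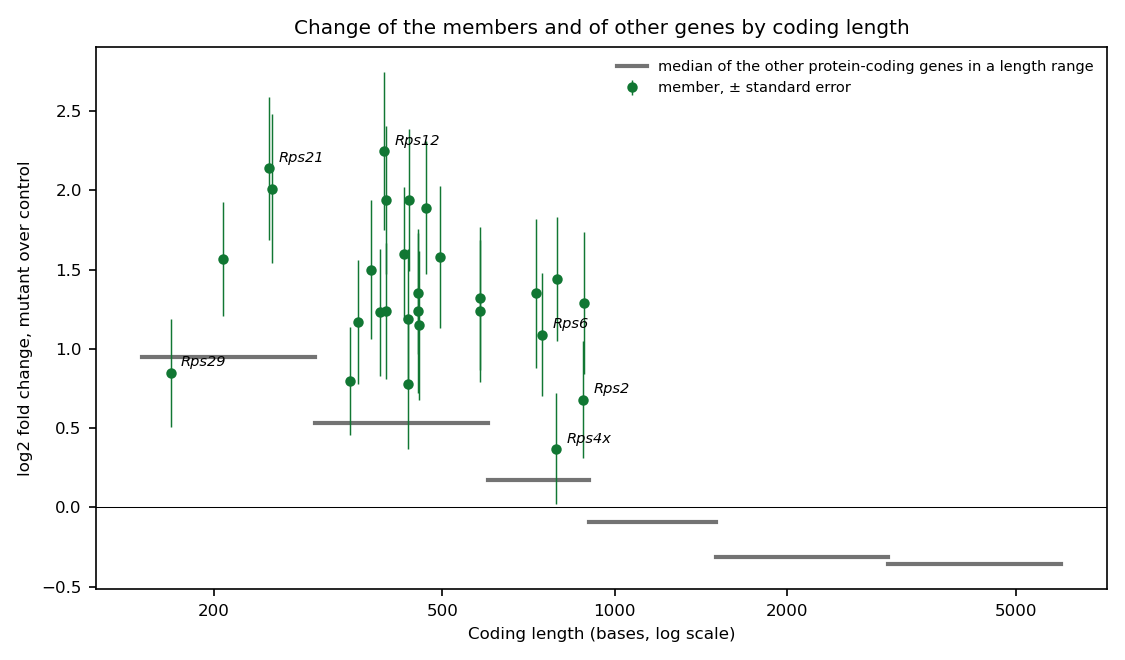
Log2 fold change (mutant over control, ± standard error) of each member against its coding length (log axis), with grey lines for the median of the other protein-coding genes in 6 length ranges; the first and the last line have no outer limit and are drawn to the edge. The medians fall from 0.95 to -0.36 with length, and most members stand above the line of their range.

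Ribosomal protein genes have many processed pseudogenes that nearly repeat their mRNA. The table held 151 pseudogenes whose sequence matches a member over at least 50% of its length at 85% identity or more. Their summed counts were 6.495%, 6.578% and 6.595% of the members' counts in the controls and 11.09%, 11.35% and 11.49% in the mutants. The share of pseudogenes was thus higher in all mutants, with little spread within a group.

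The pseudogene counts differed by member: relative to the member, they were higher in every mutant for 20 of the 28, lower in every mutant for 5 (Rps9, Rps14, Rps16, Rps27a and Rps28) and overlapping for 3. The same percentages were not computed for other genes with pseudogenes, so these counts describe the members only. For Rps24 they were 1.10%, 1.03% and 1.14% of the gene's own counts in the controls and 12.0%, 16.3% and 16.3% in the mutants. For Rps6 they were 8.72%, 9.36% and 8.69% against 39.2%, 30.3% and 30.9%, and for Rps23 19.2%, 18.9% and 20.3% against 46.6%, 55.7% and 55.0%. Among the 5 that were lower, the percentages differed most for Rps16 (14.8%, 14.7% and 14.5% against 8.66%, 6.67% and 7.95%) and for Rps28 (24.3%, 23.5% and 22.5% against 10.5%, 10.8% and 10.9%). The share of 75-base windows that also match another gene was 84.1% for Rps6, 82.4% for Rps12, 13.7% for Rps24 and 0 for Rps3, so the values of the first 2 are uncertain where reads could be split. With each member's matched pseudogenes added to it, Rps24 changed by 2.13, Rps23 by 1.95 and Rps6 by 1.39 on the log2 scale, the median was 1.38 and 6 members were called. Compared with the 7 calls on the members alone, Rps16 (adjusted p = 0.0510 by edgeR) and Rps28 were no longer called and Rps23 was (adjusted p = 0.0499).

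**Figure D5:**
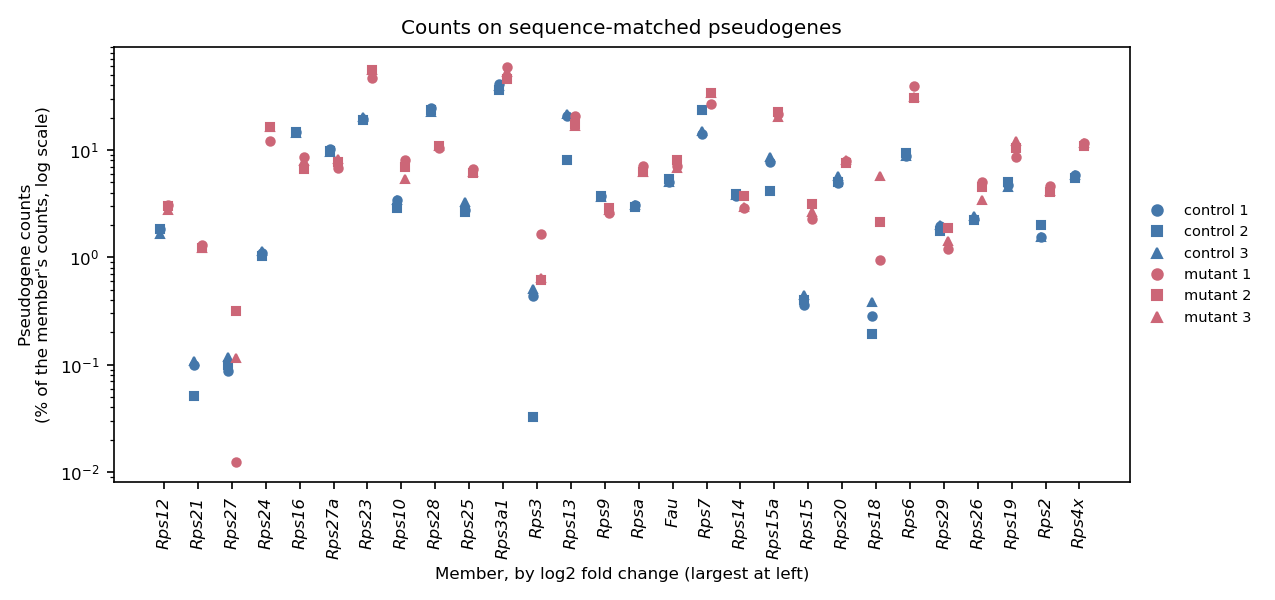
Counts on pseudogenes matched by sequence, as a percentage of the member's own counts (log axis), in each library. All mutants (red) stand above all controls (blue) for 20 members, such as Rps24 and Rps6, and below them for 5 (Rps9, Rps14, Rps16, Rps27a and Rps28).

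Of the 3 paralogs of members, Rps27rt was called and Rps27l and Rps4l (0.19) were not. The 47 proteins of the 60S subunit had a median of 1.12, with 45 positive, 6 called higher, none lower and 30 higher at an unadjusted p under 0.05. Over all genes, 3.72% were called higher and 11.0% were higher at an unadjusted p under 0.05. Rpl30, at 217, 102 and 167 CPM against 549, 546 and 622 CPM (1.82 ± 0.32), and Rpl35, at 663, 260 and 546 CPM against 2748, 2044 and 3210 CPM (2.45 ± 0.43), had the smallest p-values (adjusted p = 0.0329 each by edgeR). Rpl24 (-0.34) and Rpl4 (-0.13) were the 2 of negative sign. The 60S mRNAs held 7.08%, 2.95% and 5.27% of counts in the controls and 9.39%, 9.67% and 9.72% in the mutants.

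Other mRNAs with a TOP tract, mostly translation factors, gave a median of 0.72 over 16 genes, with 2 called higher (3.72% of all genes were). These were Eif3e, a subunit of initiation factor eIF3 (1.48, adjusted p = 0.0423), and Npm1, the nucleolar protein nucleophosmin (1.15, adjusted p = 0.0479 by edgeR). Eef2, the elongation factor that moves the ribosome along, was lower in all mutants, at 2844, 2661 and 2858 CPM against 1572, 1890 and 1500 CPM, and did not pass (-0.75 ± 0.30, adjusted p = 0.208 by edgeR), and Eif4b changed by -0.53. The 38 factors that assemble the 40S subunit had a median of 0.00 with no call by edgeR in either direction, and 3 higher and 1 lower at an unadjusted p under 0.05 (9.13% of all genes were lower). Among the positive changes the smallest p-values were for Utp6 (0.72) and Emg1 (1.16), both higher in all mutants. Bms1 (0.74, with overlap) was also higher at an unadjusted p under 0.05. Among the negative changes they were for Utp4 (-1.36) and Utp20 (-2.32, unadjusted p = 0.0854 by edgeR). The 6 S6 kinase genes, of the Rps6ka and Rps6kb families, had a median of -0.57 with no call. Other protein-coding genes with a coding length from 1500 to 3000 bases had a median of -0.31. Of the 6, 2 were lower at an unadjusted p under 0.05, both in the Rps6ka family. Rps6ka1 measured 33.9, 36.6 and 40.4 CPM against 6.77, 18.4 and 21.8 CPM (-1.23, adjusted p = 0.163 by edgeR), and Rps6ka2 changed by -1.55 (adjusted p = 0.228 by edgeR). The S6 kinases downstream of mTORC1 are those of the Rps6kb genes. Rps6kb1, which encodes the main one, changed by 0.34, and Rps6kb2 by -0.44 with 0 CPM in mutant 1.

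The 32 small subunit proteins of the mitochondrial ribosome had a median of 0.51, with 25 positive and 3 called higher (3.72% of all genes were). Other protein-coding genes had a median of 0.53 with 72.4% positive at a coding length from 300 to 600 bases. From 600 to 900 bases they had 0.17 with 58.0% positive, so the median of this list is not set apart from short genes. Chchd1 (2.09, adjusted p = 0.0428) and Mrps34 (1.26, adjusted p = 0.0458 by edgeR) had the smallest p-values, and Dap3 (-0.44) and Mrps26 (-0.40) were on the negative side without passing. The 13 mitochondrially encoded genes were all called higher, with a median of 3.35, and held 0.748%, 0.715% and 0.733% of counts in the controls and 6.64%, 4.29% and 5.67% in the mutants.

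Cell type markers moved with the groups in part. The 6 dental epithelium markers, led by Amelx, the main enamel matrix protein, summed to 85134, 96786 and 120548 CPM in the controls and 33358, 31336 and 69426 CPM in the mutants, with 4 of 6 genes lower in every mutant (16.3% of all genes tested were) and none passing the test. Odontoblast markers (4 genes, led by Dspp) summed to 2877, 8677 and 1997 CPM against 2722, 4214 and 3999 CPM. Dental mesenchyme markers (6 genes, led by Col1a1) summed to 23999, 61539 and 30348 CPM against 25759, 20160 and 26236 CPM, with overlap. None of the 6 was positive and none was called, while Axin2 (-1.21) and Col1a2 (-1.12) were lower in every mutant and at an unadjusted p under 0.05. Skeletal muscle markers (6 genes, led by Acta1) summed to 8.04, 2491 and 25.7 CPM against 5373, 126 and 884 CPM, so that control 2 and mutant 1 held the most. Erythroid markers (6 genes, led by Hbb-bs) summed to 823, 833 and 380 CPM against 1289, 926 and 2560 CPM, with 4 of 6 genes positive. Hbb-bs was higher in every mutant (1.81, adjusted p = 0.0727 by edgeR), Hba-a2 changed by 1.36 with overlap, and Hba-a1, the only one called, fell (-2.04, adjusted p = 0.0460 by edgeR); Hba-a1 and Hba-a2 are nearly identical copies, so the division of reads between them is uncertain. Macrophage markers (6 genes, led by C1qa) summed to 293, 297 and 108 CPM against 310, 209 and 223 CPM, neutrophil markers (5 genes, led by S100a8) to 6.53, 102 and 11.6 CPM against 29.7, 77.5 and 35.8 CPM, endothelial markers (5 genes, led by Cdh5) to 146, 243 and 153 CPM against 126, 134 and 118 CPM, and Schwann cell markers (5 genes, led by Mbp) to 46.7, 42.5 and 28.7 CPM against 99.5, 55.9 and 24.0 CPM. With control counts thinned to the depth of the mutants, the median change of the small subunit mRNAs was 1.31 with 3 calls, and with mitochondrially encoded genes left out of the total, the ratio of their share was 2.35. The part of cell type in their change was not tested.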

How the data were processed

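The authors sequenced single reads, which were trimmed and aligned to mm10 with Partek Flow. What the authors deposited is a table of genes by library holding estimated counts, partly not whole and not normalized; the submitters' processing notes name TopHat2 2.0.8. The counting model and annotation are not given in the sources used here. A second deposited table of the authors' own comparisons (fold changes and p-values) was not used. All 6 libraries of the table were used, grouped by the genotype in their labels.

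Estimated counts were rounded and fitted with edgeR 4.0.16 in R 4.3.3: upper-quartile scaling, as the study's methods state, filterByExpr (minimum count 10, minimum total 15), the quasi-likelihood test of genotype and Benjamini-Hochberg adjustment over all 15826 genes tested, with calls at an adjusted p under 0.05. The standard error is the log2 fold change divided by the root of the test statistic. The fit was also run on simulated counts with a single dispersion for all genes. These do not copy the spread between the present libraries, and no result is drawn from them. Gene models are from GENCODE M21 and promoters from RefSeq, both on GRCm38; 18637 gene names matched directly and 195 through synonyms. Pseudogenes were matched with blastn 2.17.0. Alternatives used DESeq2 1.42.0, limma 3.58.1, other scalings and filters, pseudogene sums, a length and GC correction, thinned controls and left-out libraries. Every member is accounted for; values in every library are given for the 5 largest and 5 smallest changes and for members with a special role, and up to 2 genes with the smallest p in each direction for the other pathway lists; marker lists are given by their sums. The result of 1 list is not reported here. Rps28 and Hba-a1 were named in addition because they were called. Members and lists were chosen with earlier results of these data known.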

Additional observations from a re-analysis of the deposited data

How the results depend on the processing

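The direction held for all 28 members under every alternative except the length and GC correction, which moved the median from 1.31 to 0.52, turned Rps4x (-0.45), Rps26 (-0.38), Rps28 (-0.02) and Rps29 (-0.79) negative and left 0 calls. The number of members called higher, 7 as reported, was 23 with DESeq2, 17 with limma-voom, 3 with control counts thinned to the depth of the mutants, 0 with no filter on low counts (of 229 genes called in all) and 0 with protein-coding genes only (54 in all), although 25 members had an unadjusted p under 0.05 by edgeR in each of the last 2. Leaving out each library in turn gave 0 to 7 calls, 7 only without control replicate 2, and medians of 0.98 to 1.68. No member was called lower under any alternative. The other settings gave 5 (total counts) to 8 calls, and the summed pseudogenes matched by sequence, an alternative chosen after seeing the data, gave 6. Across all genes the median was -0.04 as reported, -0.13 with TMM scaling and -0.30 with total counts, where the members' medians were 1.22 and 1.07. The share of counts stayed 1.82 to 2.77 times that of the controls.

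Same-numbered libraries of the 2 groups share only a number: the correlations of their deviations from the group means were 0.0472, 0.00937 and 0.0548. With the replicate block, 8 members were called and 508 genes in all, against 1074 without it. Genes called in all were 1609 with DESeq2, 1340 with limma-voom, 370 with a mean of at least 50 counts, 374 with thinned controls, 127 after the length and GC correction and 76 to 606 with a library left out. Depth limited the mutants, whose 3-count floor was 0.256 to 0.655 CPM, well under every member. The causes of these differences were not tested.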
